A study of Mus musculus with 9 samples.

Results

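The genes described here are 10 that move or hold calcium in muscle, out of 35675 genes measured in all. They are the pumps Atp2a1, Atp2a2 and Atp2a3, the buffers Casq1, Casq2 and Hrc inside the sarcoplasmic reticulum, the anchor Trdn, the pump regulators Sln and Pln, and the cytosolic buffer Pvalb. They were taken as a list by function, which was chosen with earlier results of these data known. Their estimated counts were summed over all annotated transcripts of each gene, 41 transcripts in total. Polyadenylated RNA was sequenced in 9 libraries of mouse embryonic fibroblasts (MEFs), all of the Dmdmdx genotype, which carries a premature stop codon in the dystrophin gene and serves as a mouse model of Duchenne disease. The groups were 3 libraries of untreated MEFs, 3 of MEFs given ectopic MyoD, and 3 of MEFs given ectopic MyoD and the small molecules F/R/C, whose letters are left as the labels write them. The series concerns the making of muscle progenitors from fibroblasts, and the vector that carried MyoD, its dose and the time of treatment are not given in the sources used here. Whether the libraries of a group come from different cultures or animals is not given in the labels, so the p-values speak only of how these libraries spread, which may be technical.

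In a muscle fibre, calcium released from the sarcoplasmic reticulum starts contraction, and pumps of the SERCA family return it to the reticulum against its gradient. Inside the reticulum, calsequestrins bind the calcium near the release channel, while small membrane proteins such as sarcolipin and phospholamban lower the activity of the pump. Fast and slow fibres differ in their use of the members of these families. Fast fibres rely on the pump SERCA1 (gene Atp2a1), on calsequestrin 1 (Casq1) and on parvalbumin (Pvalb), a soluble protein that takes up calcium in the cytosol. Slow fibres and the heart make SERCA2a (a product of Atp2a2), calsequestrin 2 (Casq2) and phospholamban (Pln). Casq1 and Casq2 are compared here as a fast and a slow form, but that split between fibre types is not strict.

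The libraries held 21066815 to 24175719 estimated counts in annotated genes. Levels are given as CPM, that is counts scaled to equal effective library sizes, and a count of 0, taken to allow up to 3 counts, then stands for up to 0.113 to 0.144 CPM, counting error only. In a check of the labels, Myod1 lay at 0.402 to 5.998 CPM in MEF, 7.21 to 18.9 CPM in MyoD and 269 to 330 CPM in F/R/C libraries, and Myog, the regulator of terminal differentiation, at 0.0930 to 19.1, 18.4 to 61.3 and 962 to 1544 CPM. MEF replicate 3 stood apart from the other MEF libraries in carrying muscle transcripts: of the 10 genes, 9 were highest there among the MEF libraries, and 9 were highest in MyoD replicate 3 among the MyoD libraries. For F/R/C against MEF, fold changes are therefore also given without MEF replicate 3 where it moved them.

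Atp2a1, the fast fibre pump gene, was at or near 0 in 2 of the 3 MEF libraries and took most of the pump transcripts with F/R/C, while the pump that fibroblasts already made shifted to its shorter splice form. The ends of the coding sequence that tell these forms apart are shown here, since the results on the pumps turn on them. Lower case marks the last bases that both forms of a gene share, and capitals mark the coding bases, stop codon included, that belong to the named transcript alone. In Atp2a2 (chromosome 5, minus strand, GRCm38) the shared stretch lies at chr5:122457303-122457332. The longer form reads straight on at chr5:122457151-122457302, and the shorter form joins a separate last exon at chr5:122454291-122454304.
Atp2a2-201: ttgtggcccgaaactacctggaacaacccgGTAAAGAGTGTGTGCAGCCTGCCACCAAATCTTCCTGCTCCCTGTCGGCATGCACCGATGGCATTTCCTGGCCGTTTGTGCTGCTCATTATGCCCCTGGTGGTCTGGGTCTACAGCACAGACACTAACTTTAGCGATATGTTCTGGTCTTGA
Atp2a2-202: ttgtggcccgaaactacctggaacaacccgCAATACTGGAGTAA
The coding sequence of Atp2a2-201 has 1044 codons and that of Atp2a2-202 has 998, the arrangement known for the widespread SERCA2b and the muscle form SERCA2a. In Atp2a1 (chromosome 7, minus strand) the shared stretch lies at chr7:126446871-126446900. Atp2a1-201 goes on into a short exon that holds its stop codon at chr7:126446582-126446586, as in the adult fast pump, and Atp2a1-202 skips that exon and ends at chr7:126446101-126446126, as in the form known from newborn muscle.
Atp2a1-201: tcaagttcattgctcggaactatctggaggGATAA
Atp2a1-202: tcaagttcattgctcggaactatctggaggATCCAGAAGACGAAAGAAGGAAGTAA

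Promoter sequence was looked at because most of these genes rose in the same libraries and because MyoD and its relatives bind E-boxes, which have the letters CANNTG and read the same on both strands. RefSeq (GRCm38.p6) gave a promoter window for 7 of the 10 genes, and the 250 bases before the transcription start were searched. Of all 32851 RefSeq windows of that length, 66.2% held CANNTG, and 13% held CAGCTG, 1 of the sequences that CANNTG covers. CAGCTG was found in the windows of Atp2a1, Casq1 and Hrc. Casq2 and Pln held other forms of CANNTG, Atp2a3 held none, and of the 2 windows of Pvalb the one at the annotated gene start held none and the other held 1. The sequences of the windows of Atp2a1, Casq1, Casq2 and Hrc have each CANNTG in capitals. For Atp2a1 the bases that GENCODE places in its first exon are left out. These 4 genes rose together with F/R/C, and each of their windows held a CANNTG. Pvalb rose with them (log2 fold change 8.53 against MEF), although its window at the annotated gene start held none. The 4 windows thus cover only a part of the genes that rose and do not link the rise to CANNTG. A match of these letters is a description and does not show that a factor binds there.
Atp2a1 (chr7:126463109-126463323, minus strand): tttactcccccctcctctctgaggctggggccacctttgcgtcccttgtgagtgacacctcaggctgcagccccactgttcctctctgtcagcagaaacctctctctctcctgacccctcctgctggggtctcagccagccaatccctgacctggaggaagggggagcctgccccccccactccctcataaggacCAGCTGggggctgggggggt
Casq1 (chr1:172219896-172220145, minus strand): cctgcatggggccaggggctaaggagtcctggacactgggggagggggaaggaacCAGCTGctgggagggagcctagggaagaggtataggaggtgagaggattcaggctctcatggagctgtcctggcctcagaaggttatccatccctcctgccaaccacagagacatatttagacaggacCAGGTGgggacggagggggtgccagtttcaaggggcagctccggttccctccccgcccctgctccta
Casq2 (chr3:102086165-102086414, plus strand): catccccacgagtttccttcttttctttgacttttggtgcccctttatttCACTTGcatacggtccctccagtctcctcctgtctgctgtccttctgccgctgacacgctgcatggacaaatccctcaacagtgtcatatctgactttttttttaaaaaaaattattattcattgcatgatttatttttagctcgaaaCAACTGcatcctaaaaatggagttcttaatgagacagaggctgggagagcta
Hrc (chr7:45335019-45335268, plus strand): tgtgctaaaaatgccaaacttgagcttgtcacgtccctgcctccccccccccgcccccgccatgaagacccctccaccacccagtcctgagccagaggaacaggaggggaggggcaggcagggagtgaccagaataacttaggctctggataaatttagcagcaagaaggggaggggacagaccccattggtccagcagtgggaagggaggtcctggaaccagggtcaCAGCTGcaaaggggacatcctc

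Of the 10 genes, 8 rose with F/R/C against MEF, 3 rose with F/R/C against MyoD, and none passed the test for MyoD against MEF (edgeR quasi-likelihood test, adjusted p under 0.05 over all 15714 genes tested). No gene of the 10 fell. With the replicate number as a block, edgeR called all of the 10 but Atp2a3 against MyoD, and 40.31% of all genes in either direction. Over all genes tested, 19.5% rose and 18.1% fell with F/R/C against MEF, 17.8% rose and 16.1% fell against MyoD, and 0% rose or fell for MyoD against MEF. The median log2 fold change of the 10 genes was 7.75 for F/R/C against MEF, where that of all genes was -0.04. It was 3.45 against MyoD, where that of all genes was -0.02, and 3.34 for MyoD against MEF, where that of all genes was -0.01. The comparisons share their groups, so their values are set side by side and are not independent. All 10 genes passed the filter on low counts, Pln only through its F/R/C libraries. The call of Pln with the block therefore follows in part from the filter and adds no support. These are bulk libraries, in which fewer muscle-like cells and less RNA per cell cannot be told apart.

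**Figure D1:**
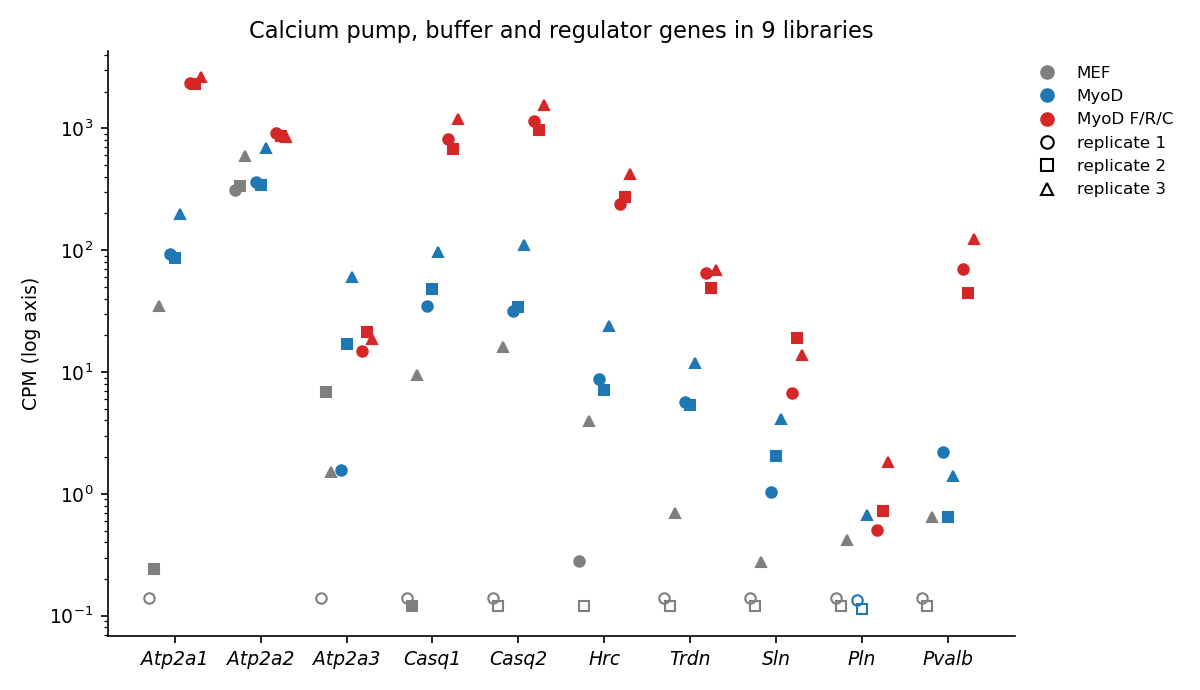
CPM (log axis) of the 10 genes in each of the 9 libraries, with colour for the group and shape for the replicate number; open symbols mark values under 3 counts and are drawn at the level that 3 counts stand for. In 8 of the genes, all but Atp2a3 and Pln, the 3 F/R/C libraries lie above every other library. The share of all genes with that pattern was not counted. Of all genes tested, 19.5% were called higher with F/R/C against MEF and 17.8% against MyoD.

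The absence of calls for MyoD against MEF changed when MEF replicate 3 was left out. In all 9 libraries, edgeR called 0 of the 10 genes and DESeq2 called 2 (Trdn and Sln), while 5 of the 10, and 732 of all genes, had an unadjusted edgeR p under 0.05. DESeq2 gave Atp2a1 no adjusted p there. Without MEF replicate 3, edgeR called 6, namely Atp2a1, Casq1, Casq2, Hrc, Trdn and Sln, at adjusted p from 0.00240 (Casq1) to 0.0359 (Sln), where 0.989% of all genes were called in either direction. That library was singled out because these same genes are high in it. Calls made without it follow in part from that choice and add no support for a rise with MyoD. For F/R/C against MyoD, leaving out the same library raised the number of the 10 genes called from 3 to 7, where 33.7% of all genes were called in either direction. Even with it, the 3 MyoD libraries lay above the 3 MEF libraries in 6 of the 10 genes, and 4.40% of all genes showed that pattern. The same library also set the size of the fold changes. With that library left out, F/R/C against MEF gave a log2 fold change of 14.1 in place of 7.71 for Atp2a1, 14.0 in place of 7.82 for Casq2, 13.8 in place of 8.53 for Pvalb and 13.4 in place of 8.04 for Trdn. It gave 12.9 in place of 8.12 for Casq1, 11.2 in place of 7.12 for Sln and 11.1 in place of 7.79 for Hrc. These are values fitted against MEF libraries at or near 0 counts, and their size depends on that. A block for the replicate number also raised some of them, to 9.99 for Atp2a1, 9.75 for Casq2 and 9.48 for Casq1, and for MyoD against MEF it gave Atp2a1 5.37 in place of 3.44, still not called (adjusted p = 0.541).

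**Figure D2:**
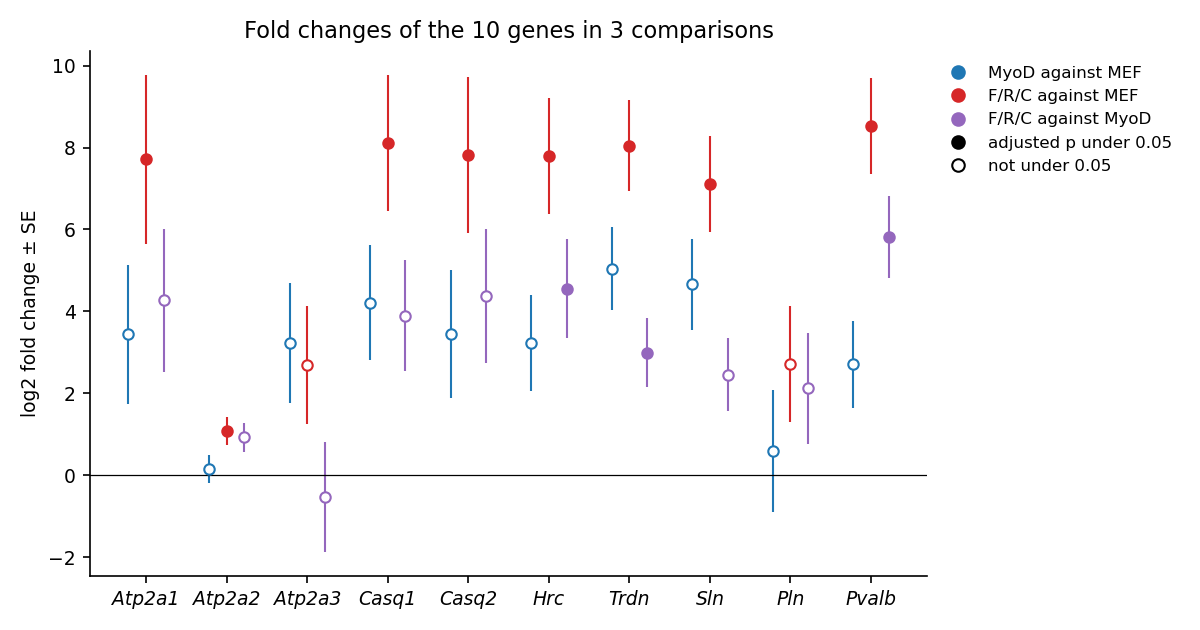
Log2 fold change ± SE of each gene in the 3 comparisons; filled points passed the test at an adjusted p under 0.05 and open points did not. With F/R/C against MEF 8 points are filled, and all of these lie above 0.

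Atp2a1 (ENSMUSG00000030730, chromosome 7, 126445858 to 126463108) encodes SERCA1, the pump of fast fibres. It had 0, 0.242 and 34.7 CPM in MEF replicates 1, 2 and 3, then 93.7, 86.6 and 199 CPM with MyoD and 2366, 2326 and 2619 CPM with F/R/C. The groups did not overlap, and MEF replicate 3 lay far above the other 2 MEF libraries. The rise with F/R/C against MEF passed the test (adjusted p = 0.0182), at a log2 fold change of 7.71 ± 2.06 (SE). The difference against MyoD was 4.27 ± 1.75 (adjusted p = 0.0902), though it passed when MEF replicate 1 (adjusted p = 0.0370) or MEF replicate 3 (adjusted p = 0.00146) was left out of the shared estimate of spread. Its last exons overlap 763 bases of Rabep2, a gene on the opposite strand that fell from 35.1 ± 7.43 CPM (SD, n = 3) in MEF to 18.1 ± 1.29 CPM in F/R/C libraries (a log2 difference of -0.96 ± 0.26 at an adjusted p of 0.0191), so the neighbour moved the other way.

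Atp2a1 carried both of its coding ends. By estimated counts, Atp2a1-202, the transcript without the short stop exon, took 8.86% of the gene in MEF replicate 3, 9.23%, 10.4% and 9.61% in MyoD replicates 1, 2 and 3, and 7.56%, 9.29% and 16.3% with F/R/C. The annotation gives this transcript only as a fragment of 681 bases, so on the TPM scale, which divides by length, the same reads came to 33.8% to 54.5% in the F/R/C libraries. The share of this end is therefore not well fixed by these files. Its use relative to Atp2a1-201 did not pass a test of relative transcript use in any comparison (adjusted p = 1 in each, edgeR diffSpliceDGE).

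Atp2a2 (ENSMUSG00000029467, chromosome 5, 122453513 to 122502225) encodes SERCA2, the pump of slow fibres and the heart and, in its longer form, of most other cells. It lay at 311, 335 and 597 CPM in MEF, at 362, 342 and 683 CPM in MyoD, and at 919, 870 and 846 CPM in F/R/C libraries. The F/R/C libraries were highest, and the MEF and MyoD libraries overlapped, with replicate 3 the highest in both. The gene rose 2.12-fold against MEF (1.08 ± 0.35 on the log2 scale, adjusted p = 0.0384), and its level was 1.90-fold that in MyoD (0.93 ± 0.35, adjusted p = 0.0700). The call against MEF was lost when MEF replicate 1 (adjusted p = 0.128) or 2 (0.139), or F/R/C replicate 1 (0.0873), 2 (0.0826) or 3 (0.0769), was left out. Against MyoD the call was made without MyoD replicate 3 (adjusted p = 0.0190).

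Beneath this moderate rise, the transcripts of Atp2a2 moved apart. Atp2a2-202, the shorter form, had 18.4, 19.8 and 32.8 TPM (transcript abundance scaled for length and library size) in MEF, 29.5, 32.8 and 75.5 TPM in MyoD, and 267, 229 and 195 TPM in F/R/C libraries. Atp2a2-201, the longer form, had 88.3, 104 and 176 TPM in MEF, 99.8, 98.4 and 163 TPM in MyoD, and 67.4, 75.3 and 37.6 TPM in F/R/C libraries. The shorter form was higher in every F/R/C library than in any other library, and the longer form was lower in every F/R/C library than in any other. In the fit of 44724 transcripts, Atp2a2-202 rose against MEF (log2 fold change 3.70 ± 0.51, adjusted p = 0.00469) and against MyoD (2.68 ± 0.48, adjusted p = 0.0165). Atp2a2-201 was not called (-0.65 ± 0.39 against MEF, adjusted p = 0.366), nor was Atp2a2-203, a transcript with the longer coding sequence annotated for nonsense-mediated decay (-0.78 ± 0.32, adjusted p = 0.169).

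The share of Atp2a2 TPM in the shorter form was 14.9%, 14.4% and 14.0% in MEF, 19.96%, 22.04% and 29.1% in MyoD, and 77.2%, 73.0% and 81.8% in F/R/C libraries. The means were 14.4% ± 0.425 (SD, n = 3), 23.7% ± 4.81 and 77.3% ± 4.42, and no group overlapped another. MEF replicate 3, the library with muscle transcripts, had the lowest share of all. The exact two-sided permutation test gave p = 0.1 for each of the 3 comparisons, the smallest that 3 libraries against 3 allow, and 0.15 adjusted over the 12 ratio and share comparisons. A test of use relative to the gene's other transcripts (diffSpliceDGE), chosen after these values were seen, gave Atp2a2-202 a relative log2 fold change of 2.56 against MEF with F/R/C (adjusted p = 0.00317, and 0.000657 to 0.0421 over the 9 libraries left out in turn). Against MyoD it was 1.74 (adjusted p = 0.0994), and for MyoD against MEF it was 0.83 (adjusted p = 1). On simulated data that test made more calls in unchanged genes than its threshold allows. It called 1.05% of the 39581 transcripts for F/R/C against MEF, 0.624% against MyoD and 0.0556% for MyoD against MEF.

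**Figure D3:**
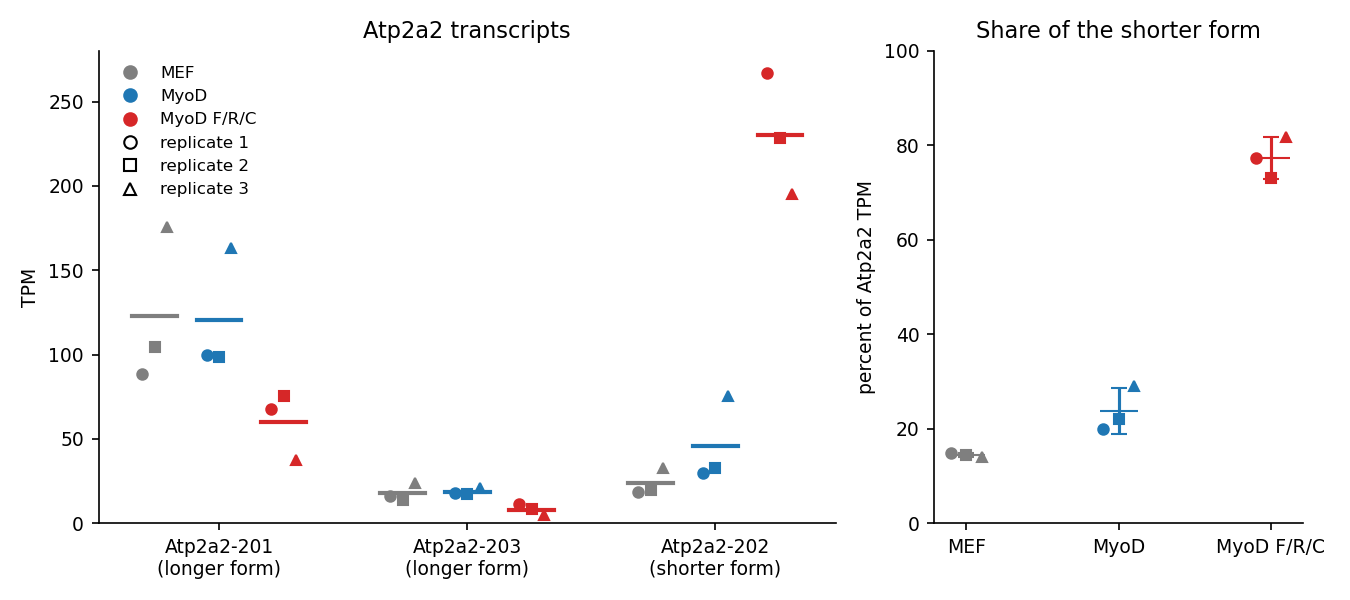
Left, TPM of the Atp2a2 transcripts with a coding sequence in each library, with bars at the group means; right, the percent of Atp2a2 TPM in the shorter form, with mean ± SD. The shorter form rises from 14.0 to 14.9% in MEF to 73.0 to 81.8% in F/R/C libraries.

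Atp2a3 (ENSMUSG00000020788, chromosome 11, 72961169 to 72993044) encodes SERCA3, a pump known mainly from blood and epithelial cells. It lay at 0, 6.88 and 1.52 CPM in MEF, 1.57, 17.1 and 60.8 CPM in MyoD, and 14.7, 21.5 and 18.7 CPM in F/R/C libraries. The MyoD libraries spanned the F/R/C libraries, with replicate 3 above them all. No comparison passed the test (2.70 ± 1.43 for F/R/C against MEF at an adjusted p of 0.169, and -0.53 ± 1.34 against MyoD at 0.785), and the sign against MyoD turned to 0.96 without MyoD replicate 3.

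Added up, the 3 pump genes had 123, 141 and 262 TPM in MEF, 228, 239 and 440 TPM in MyoD, and 1966, 1936 and 2000 TPM in F/R/C libraries. Atp2a1 made up 0%, 0.104% and 10.7% of this sum in MEF, 35.0%, 34.4% and 35.7% in MyoD, and 82.1%, 83.4% and 87.8% in F/R/C libraries. Of the Atp2a1 TPM, 39.1 to 42.35% in MyoD and 33.8 to 54.5% in F/R/C libraries lay in the 681-base fragment Atp2a1-202. The sums and all shares of them therefore depend on how that fragment is scaled for length. The longer form of Atp2a2 went from 76.2 to 84.7% in MEF, through 41.7 to 51.7% in MyoD, to 2.12 to 4.31% in F/R/C libraries. The shorter form of Atp2a2 held between 9.74 and 17.2% of the sum in all 9 libraries, although its own TPM rose with F/R/C.

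**Figure D4:**
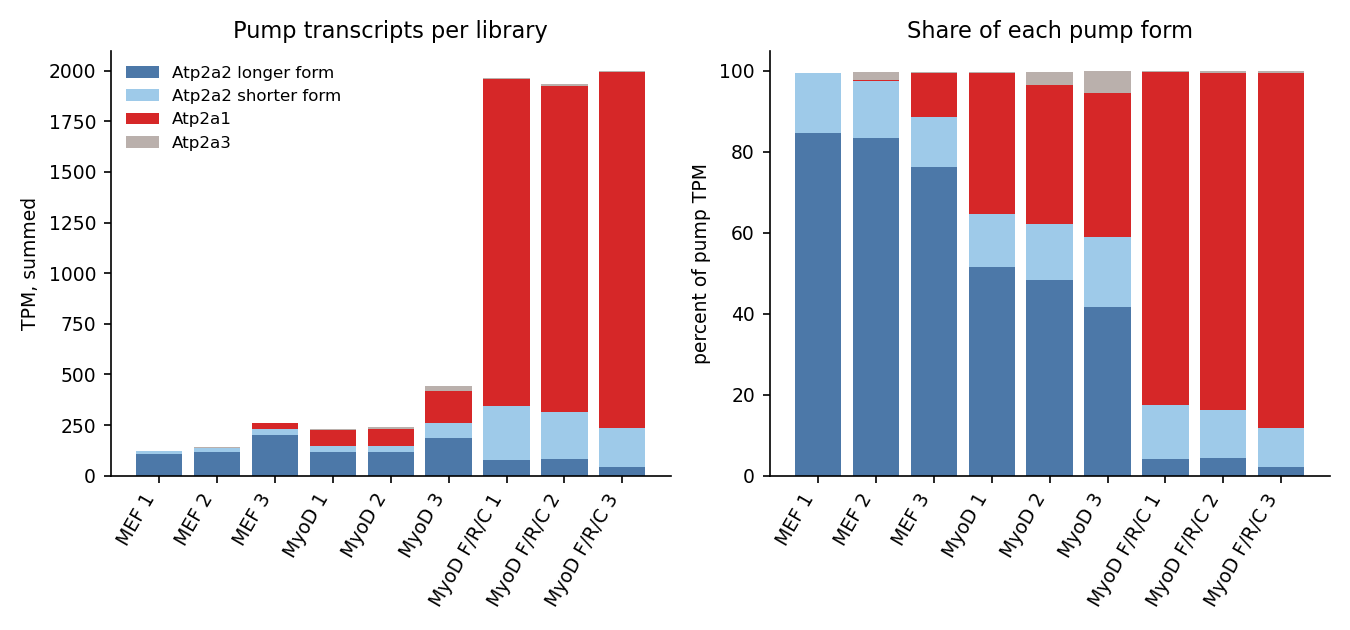
Left, TPM of each pump form, stacked, per library; right, the same as a percent of the TPM of the 3 pump genes, without Atp2a2 transcripts that have no coding sequence (at most 0.408%). Atp2a1 takes 82.1 to 87.8% of the pump transcripts in F/R/C libraries and 34.4 to 35.7% in MyoD libraries.

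Both calsequestrins, the high-capacity calcium buffers of the reticulum, rose with F/R/C, the slow form as well as the fast one. Casq1 (ENSMUSG00000007122, chromosome 1, 172209894 to 172219868), the fast fibre form, had 0.0930, 0.121 and 9.50 CPM in MEF, 34.8, 48.4 and 97.2 CPM in MyoD, and 815, 676 and 1202 CPM in F/R/C libraries. Casq2 (ENSMUSG00000027861, chromosome 3, 102086415 to 102146514), the slow fibre and heart form, had 0.0930, 0.0403 and 16.1 CPM, then 31.6, 34.1 and 111 CPM, and then 1144, 972 and 1543 CPM. In both genes the groups did not overlap, and replicate 3 was the highest of each group.

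Against MEF, Casq1 rose by a log2 fold change of 8.12 ± 1.66 (adjusted p = 0.00609) and Casq2 by 7.82 ± 1.91 (adjusted p = 0.0127) with F/R/C. Against MyoD, the values were 3.90 ± 1.36 for Casq1 (adjusted p = 0.0546) and 4.37 ± 1.63 for Casq2 (adjusted p = 0.0669). Both genes passed against MyoD without MEF replicate 1, 2 or 3 (adjusted p from 0.000974 to 0.0345 for Casq1 and from 0.00135 to 0.0411 for Casq2). Most reads of each gene fell in its full-length coding transcript, Casq1-201 (759, 599 and 791 TPM in F/R/C libraries) and Casq2-201 (670, 547 and 609 TPM). Casq2-202, a transcript with no annotated coding sequence, reached 227, 154 and 134 TPM there and was called against MEF and against MyoD (adjusted p = 0.00613 and 0.0448). Casq1 shares 156 exonic bases with the antisense gene Gm17224, which had at most 9 counts in any library.

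Hrc and Trdn encode partners of the calsequestrins. Hrc (ENSMUSG00000038239, chromosome 7, 45335290 to 45338974), the histidine-rich calcium-binding protein of the reticulum lumen, had 0.279, 0 and 3.97 CPM in MEF, 8.68, 7.06 and 23.96 CPM in MyoD, and 239, 271 and 423 CPM with F/R/C. Hrc rose with F/R/C against MEF (log2 fold change 7.79 ± 1.41, adjusted p = 0.00364) and against MyoD (4.56 ± 1.20, adjusted p = 0.0198). The call against MyoD was lost without MyoD replicate 1 (adjusted p = 0.0686) or 2 (0.0768) or F/R/C replicate 3 (0.0553).

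Trdn (ENSMUSG00000019787, chromosome 10, 33080554 to 33476709) encodes triadin, which ties calsequestrin to the ryanodine receptor, the release channel. It had 0, 0 and 0.692 CPM in MEF, 5.64, 5.36 and 11.8 CPM in MyoD, and 65.5, 48.5 and 68.2 CPM in F/R/C libraries. Its rise was 8.04 ± 1.11 against MEF (adjusted p = 0.00122) and 3.00 ± 0.84 against MyoD (adjusted p = 0.0246). Among the 10 genes, Trdn had the lowest p for MyoD against MEF (5.05 ± 1.02, unadjusted p = 0.000843, adjusted p = 0.237), with no overlap between the groups. The call against MyoD was lost without MyoD replicate 1 (adjusted p = 0.0744) or 2 (0.0874), or F/R/C replicate 1 (0.0670), 2 (0.0543) or 3 (0.0752).

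The small regulators of the pump stayed low beside the pumps themselves. Sln (ENSMUSG00000042045, chromosome 9, 53850164 to 53854560) encodes sarcolipin, which lowers the efficiency of the pump and is found in the atria and in developing and slow muscle. It had 0, 0 and 0.277 CPM in MEF, 1.03, 2.04 and 4.14 CPM in MyoD, and 6.76, 19.01 and 13.9 CPM in F/R/C libraries. The groups did not overlap, and Sln rose against MEF (7.12 ± 1.17, adjusted p = 0.00247) but was not called against MyoD (2.46 ± 0.88, adjusted p = 0.0601). It passed against MyoD without MEF replicate 3 (adjusted p = 0.0222) or MyoD replicate 3 (0.0427).

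Pln (ENSMUSG00000038583, chromosome 10, 53337667 to 53345987) encodes phospholamban, the brake on SERCA2 in heart and slow muscle. It had 0, 0.0403 and 0.415 CPM in MEF, 0, 0.0378 and 0.674 CPM in MyoD, and 0.504, 0.729 and 1.83 CPM in F/R/C libraries, that is at most 38 counts. Replicates 1 and 2 of MEF and of MyoD lay under the level of 3 counts. No comparison passed (2.72 ± 1.42 for F/R/C against MEF at an adjusted p of 0.163), though with the replicate number as a block the value was 3.46 (adjusted p = 0.0214), and without MEF replicate 3 it was 5.20 (adjusted p = 0.0627). Against MyoD it was 2.12 ± 1.37 (adjusted p = 0.258), and 5.31 (adjusted p = 0.0418) without MyoD replicate 3. Pln passed the filter on low counts only through its F/R/C libraries. Its calls under these alternatives follow in part from the filter and add no support. Exons of Pln overlap Cep85l on the opposite strand by 141 bases, and Cep85l rose from 7.91 ± 0.964 CPM in MEF to 30.8 ± 13.0 CPM in F/R/C libraries. The part of Cep85l reads in the counts of Pln was not tested.

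Per length, the F/R/C libraries averaged 1661 ± 81.4 TPM of Atp2a1 and 299 ± 55.2 TPM of Atp2a2, against 14.7 ± 7.31 TPM of Sln and 1.39 ± 0.768 TPM of Pln. In MyoD libraries the same levels were 106 ± 44.0, 185 ± 64.0, 3.46 ± 2.05 and 0.601 ± 1.00 TPM.

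Pvalb (ENSMUSG00000005716, chromosome 15, 78191114 to 78206400) encodes parvalbumin, the cytosolic buffer that speeds relaxation in fast fibres. It had 0, 0 and 0.646 CPM in MEF, 2.2, 0.642 and 1.40 CPM in MyoD, and 70.6, 44.9 and 123 CPM in F/R/C libraries. MEF replicate 3 lay at the level of MyoD replicate 2, and every F/R/C library lay far above both groups. With F/R/C it rose by 8.53 ± 1.18 against MEF (adjusted p = 0.00122) and by 5.82 ± 1.00 against MyoD (adjusted p = 0.00388) on the log2 scale. Its counts outside the F/R/C libraries were few, 0, 0 and 14 in MEF and 49, 17 and 29 in MyoD. It was the only one of the 10 genes called against MyoD with any of the 9 libraries left out (adjusted p from 0.00101 to 0.0188). Most of its reads fell in Pvalb-202 (116, 72.8 and 147 TPM in F/R/C libraries), while Pvalb-201 had 13.0, 4.97 and 17.7 TPM there and 0 in the other 6 libraries.

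Of the 41 transcripts of the 10 genes, 24 passed the filter. With F/R/C against MEF 13 rose and none fell, and against MyoD 6 rose and none fell. Of the 24, 9 reached the filter's level in fewer than 3 libraries outside F/R/C and so needed F/R/C libraries to pass. Among them were 4 of the 13 (Pvalb-201, Hrc-202, Trdn-204 and Trdn-208) and 3 of the 6 (the same without Trdn-208). The calls of these transcripts follow in part from the filter and add no support. Over all transcripts tested, 6.71% rose and 4.77% fell against MEF, and 4.09% rose and 3.79% fell against MyoD. For MyoD against MEF edgeR called 0 of the 24, with 10 at an unadjusted p under 0.05, where 0.0112% of all transcripts rose and 0% fell. Without MEF replicate 3, singled out because these genes are high in it, 5 of the 24 were called in that comparison.

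The fast and slow forms were then set against each other within each library as the log2 ratio of their TPM (with 0.1 TPM added to both). The ratio of Atp2a1 to Atp2a2 was -10.27, -9.13 and -3.05 in MEF, -0.89, -0.86 and -0.72 in MyoD, and 2.22, 2.37 and 2.88 in F/R/C libraries. No group overlapped another, and Atp2a1 exceeded Atp2a2 in the 3 F/R/C libraries and lay below it in the other 6. Set against the shorter form of Atp2a2 alone, Atp2a1 was already higher in the MyoD libraries, with 79.9, 82.1 and 157 TPM beside 29.5, 32.8 and 75.5 TPM. The difference was 6.66 ± 2.24 (SE) for MyoD against MEF, 9.97 ± 2.25 for F/R/C against MEF and 3.31 ± 0.21 for F/R/C against MyoD, each with an exact permutation p = 0.1, the smallest possible, and 0.15 adjusted. The MEF value depends on replicates 1 and 2, where Atp2a1 was at 0 and 0.147 TPM. Without MEF replicate 3 the difference was 8.88 for MyoD against MEF and 12.2 for F/R/C against MEF.

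The ratio of Casq1 to Casq2 was -0.60, 0.44 and -0.34 in MEF, 0.50, 0.72 and -0.03 in MyoD, and -0.23, -0.22 and 0.08 in F/R/C libraries. The groups overlapped in all 3 comparisons. The difference was 0.05 ± 0.33 for F/R/C against MEF (exact permutation p = 0.8) and -0.52 ± 0.24 between F/R/C and MyoD (exact permutation p = 0.2). In the 6 MyoD and F/R/C libraries the log2 ratio thus lay between -0.23 and 0.72. The ratio of Sln to Pln was 4.03, 4.54 and 1.62 in MyoD and 3.28, 4.21 and 2.45 in F/R/C libraries, with Sln higher in all 6 libraries and the groups overlapping (difference -0.09 ± 1.04, exact permutation p = 1). In MEF both genes lay at or near 0, so their ratio there is not interpreted.

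**Figure D5:**
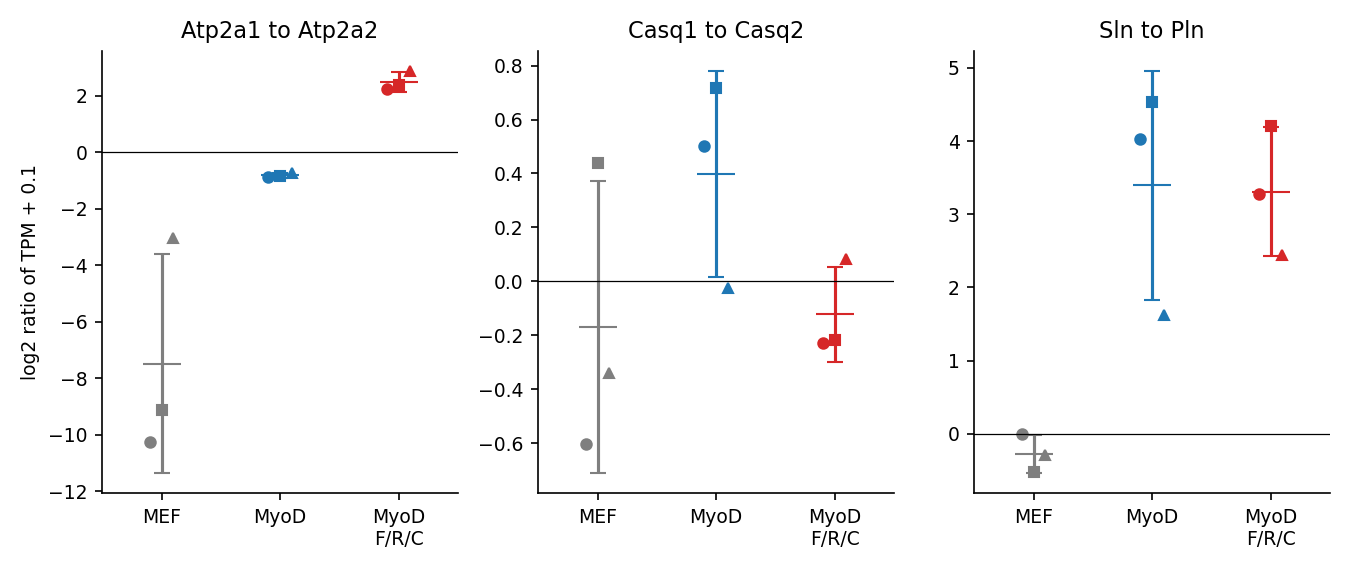
Log2 ratio of TPM + 0.1 for Atp2a1 to Atp2a2, Casq1 to Casq2 and Sln to Pln in each library (circle, square and triangle for replicates 1, 2 and 3), with mean ± SD per group. Only the pump ratio differs without overlap between all 3 groups.

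Contractile genes of both fibre types were high in the same libraries. Of 9 fast fibre sarcomere genes, all 9 rose with F/R/C against MEF, with a median log2 fold change of 7.67. Mybpc2, a fast myosin-binding protein, rose by 8.23 ± 0.81 (adjusted p = 0.000375), and Myh2, a fast myosin heavy chain, by 7.59 ± 1.02 (adjusted p = 0.00106), though Myh2 lay at 15.3 ± 5.64 CPM with MyoD alone and 15.4 ± 9.18 CPM with F/R/C and these groups overlapped. Of 7 slow fibre genes tested, 6 rose, with a median of 7.70. Among these, Tnnc1, the slow and cardiac troponin C, rose by 8.01 ± 1.20 (adjusted p = 0.00167) and Myoz2, a slow fibre protein of the Z-disc, by 7.86 ± 1.44 (adjusted p = 0.00382). Against MyoD, 5 of the 9 and 4 of the 7 rose. Over all genes tested, 19.5% rose with F/R/C against MEF and 17.8% against MyoD.

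The level of Atp2a1 followed that of contractile genes across the 9 libraries. Among the 10181 genes whose average level was 3 or more on the log2 CPM scale, the genes with the highest Pearson correlation of log2 CPM with Atp2a1 were Acta1 (r = 0.999), Myl1 (0.997), Myom2 (0.996), Tnni1 (0.996) and Tnnc2 (0.995). For Atp2a2 they were Dysf (0.991), Ampd3 (0.989), Coa5 (0.989), Aif1l (0.987) and Ktn1 (0.987). These points share the split into 3 groups, so the values describe the libraries. Among the 10 genes, Casq1 and Casq2 had the highest correlation (r = 0.997) and Atp2a3 and Pvalb the lowest (r = 0.551).

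The 65 tested genes of a wider calcium list changed in both directions. With F/R/C against MEF, 25 rose and 16 fell, with a median log2 fold change of 0.15, and against MyoD 23 rose and 15 fell. Over all genes tested, 19.5% rose and 18.1% fell against MEF, and 17.8% rose and 16.1% fell against MyoD. For MyoD against MEF edgeR called 0 of them, with 13 at an unadjusted p under 0.05. DESeq2 called 6 there, edgeR with the replicate number as a block called 3, and edgeR without MEF replicate 3 called 7. Of 12 genes of the release channel (Ryr1 and Ryr3) and its partners, 11 rose against MEF, and 9 rose and 1 fell against MyoD. Tmem38a, a potassium channel of the reticulum that balances charge during release, went from 14.8 ± 4.71 to 380 ± 96.7 CPM between MEF and F/R/C libraries (log2 fold change 4.68 ± 0.37, adjusted p = 0.000227). Stac3, which couples the voltage sensor to the release channel, went from 0.974 ± 0.756 to 101 ± 31.6 CPM (6.70 ± 0.62, adjusted p = 0.000322). Of the other small pump regulators 2 were tested, and Mrln, which encodes myoregulin, rose from 0.108 ± 0.186 to 9.14 ± 5.91 CPM (6.37 ± 1.17, adjusted p = 0.00385).

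The general calcium-binding proteins of the endoplasmic reticulum, found in most cells, moved the other way from the calsequestrins: 6 of 9 fell against MEF and none rose. Over all genes, 18.1% fell and 19.5% rose in that comparison. Rcn3 went from 564 ± 113 to 125 ± 21.9 CPM (-2.18 ± 0.27, adjusted p = 0.000841) and Rcn1, another reticulocalbin, from 282 ± 52.1 to 117 ± 15.2 CPM (-1.27 ± 0.22, adjusted p = 0.00312). Of 6 tested cytosolic proteins of the calmodulin, S100 and calbindin kind, 2 fell and none rose, namely Calm2 (-0.68 ± 0.20, adjusted p = 0.0260) and S100a1 (-1.29 ± 0.39, adjusted p = 0.0314). Pvalb, a buffer of the same compartment, was among the genes that rose.

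Some relatives within the entry and exit routes changed in opposite directions. Over all genes tested, 19.5% rose and 18.1% fell with F/R/C against MEF. Of 9 genes of store-operated entry and inositol trisphosphate receptors, 3 rose and 5 fell against MEF. Orai1, the main channel of store-operated entry, rose from 24.5 ± 5.27 to 155 ± 44.8 CPM (2.66 ± 0.26, adjusted p = 0.000360), while its relatives Orai2 (-1.59 ± 0.19, adjusted p = 0.000750) and Orai3 (-1.13 ± 0.20, adjusted p = 0.00357) fell. Among 7 tested genes of export, 2 rose and 1 fell, counts that are near the shares over all genes. The sodium-calcium exchanger Slc8a3 rose from 2.25 ± 0.859 to 53.5 ± 11.1 CPM (4.57 ± 0.39, adjusted p = 0.000265) and Slc8a1 fell from 168 ± 46.9 to 19.7 ± 7.17 CPM (-3.10 ± 0.41, adjusted p = 0.00107). Atp2b3, a plasma membrane pump, rose but reached only 1.17 ± 0.336 CPM.

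In mitochondria, 4 of 8 genes of calcium uptake and exchange rose against MEF and 1 fell, where 19.5% of all genes rose and 18.1% fell. The uniporter pore Mcu went from 29.5 ± 11.1 to 215 ± 39.5 CPM (2.87 ± 0.31, adjusted p = 0.000475), the sodium-dependent exchanger Slc8b1 rose (2.27 ± 0.28, adjusted p = 0.000744), and Mcub, the pore subunit that lowers uptake, fell (-1.93 ± 0.53, adjusted p = 0.0209). Of 12 genes of calcineurin, NFAT and calmodulin kinase II, 4 rose and 1 fell. Camk2b rose by 6.23 ± 0.53 (adjusted p = 0.000264) and Camk2a by 5.54 ± 0.54 (adjusted p = 0.000361), and Nfatc4 fell by 2.02 on the log2 scale (SE 0.34, adjusted p = 0.00274).

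Since several of the 10 genes are also known from other tissues, markers of other cell types were read in the same libraries. Of 12 heart markers 6 were tested, of which Nppb and Myh6 rose and Hand2 fell with F/R/C against MEF; their summed level was 18.1 to 39.1 CPM in MEF, 15.9 to 54.9 CPM in MyoD and 12.4 to 17.7 CPM in F/R/C libraries, with Myl7 and Mybpc3 at no more than 3 counts in each F/R/C library. Among the heart markers that were not tested, Nppa had 5, 12 and 15 counts with F/R/C and 0 in the other 6 libraries, and Gata4 had 5, 21 and 12 counts and at most 1 elsewhere. Tbx5 and Hand2 made up most of the sum in MEF and MyoD libraries. None of 6 smooth muscle markers was called (404 to 1336 CPM in F/R/C libraries). Of 6 blood markers 3 were tested and 2 rose, with a sum of 7.44 to 12.1 CPM in F/R/C libraries and 2.54 to 4.46 CPM in MEF. Itgam went from 0.0907 ± 0.0497 CPM in MEF to 3.775 ± 0.993 CPM in F/R/C libraries (log2 fold change 5.32 ± 0.55, adjusted p = 0.000440). It also rose against MyoD (3.25 ± 0.47, adjusted p = 0.00209). Cd68 went from 2.04 ± 0.524 CPM in MEF to 5.30 ± 1.10 CPM in F/R/C libraries (adjusted p = 0.0154). Ptprc and Adgre1 lay at no more than 3 counts in each F/R/C library. Of 6 endothelial markers 3 were tested and 2 fell (Tek and Erg), with a sum of 11.5 to 55.7 CPM in MEF and 1.44 to 5.97 CPM in F/R/C libraries. Erg alone made up most of the sum in MEF (53.0, 27.0 and 9.735 CPM). Among those not tested, Cdh5 had 0, 0 and 1 counts in MEF and 17, 26 and 6 with F/R/C. Pecam1 had 0, 4 and 5 counts in MEF and 7, 17 and 9 with F/R/C. Of 6 neuronal markers 3 were tested and 1 fell (25.6 to 107 CPM in MEF and 25.1 to 41.7 CPM in F/R/C libraries). Of 10 fibroblast markers 2 fell and none rose, where 18.1% of all genes fell and 19.5% rose, so the count of falls is near that share. Their sum was 18520 to 80720 CPM in MEF, 7658 to 34020 CPM in MyoD and 5425 to 8128 CPM in F/R/C libraries. The part of these markers' cells in the results above was not tested.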

How the data were processed

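Estimated counts and TPM per transcript were deposited by the authors for each of the 9 libraries, per the file headers. The submitters' processing notes name bcl2fastq 2.19, Trimmomatic 0.36, kallisto 0.44, edgeR 3.28 and GRCm38.p6; whether kallisto used strand is not given in the sources used here.

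Of 121843 transcripts, 121104 matched the GENCODE annotation of GRCm38, and the other 739 (0.2 to 0.494% of counts) were left out. Estimated counts were summed per gene and rounded. All 9 libraries entered 1 edgeR 4.0.16 quasi-likelihood fit in R 4.3.3 (TMM scaling, filterByExpr set to at least 10 counts and 15 in total), with Benjamini-Hochberg adjustment over all genes or transcripts tested and a threshold of 0.05. The SE is the size of the log2 fold change over the root of its F value. Ratios used TPM + 0.1 and exact two-sided permutation tests. The fits were tested on simulated data, where the test of relative transcript use (edgeR diffSpliceDGE) made more calls in unchanged genes than its threshold allows. Replicates differed by far more than sampling noise (chi-square per degree of freedom 56.3 to 313.5), so no library was counted as a duplicate.

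The members and lists were chosen with earlier results of these data known. The text names all 10 genes and, of each other list, up to 2 called genes of lowest adjusted p in the prevailing direction and 1 in the other. Rabep2, Gm17224 and Cep85l were added because they overlap members.

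Same-numbered libraries deviated together from their group means for MyoD against MEF (r over genes 0.655, 0.632 and 0.729). They did so more weakly for F/R/C against MEF (0.142, 0.151 and 0.101) and against MyoD (0.0837, 0.119 and 0.164). The numbers may thus pair the libraries, which the labels do not state. The main fit and the exact tests did not use such a pairing, and a replicate block was run only as an alternative. Alternatives were other scalings, filters and pseudocounts, DESeq2 1.42.0, a replicate block, fits of the 2 groups compared, and each library left out in turn.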

Additional observations from a re-analysis of the deposited data

How the results depend on the processing

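With 3 libraries a group, the exact tests cannot go below p = 0.1 (0.25 for 3 pairs), and Pln, Trdn, Sln and Pvalb rest on few counts outside F/R/C libraries. Of 138 counts of calls under an alternative, 113 stayed within the range counted as alike. Of 503 fold changes of the 10 genes, 449 kept their direction and side of the threshold, 36 passed it newly, 14 no longer passed and 4 turned. Of 111 ratios and shares, 101 kept their direction and 10 turned. Scaling by total counts alone moved the median log2 fold change of all genes to -0.128 for F/R/C against MEF and -0.205 against MyoD. Where a value below differs, the cause was not tested.

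For MyoD against MEF, with 0 of the 10 genes called, DESeq2 called 2 and gave Atp2a1 no adjusted p. With each library left out in turn, 0 to 6 were called. Of the other calcium genes, DESeq2 called 6, and 0 to 7 were called with each library left out. Of the transcripts of the 10 genes it was 0 to 5. Over all genes the 0 calls became 171 with DESeq2, 11 with no filter beyond 1 count, 13 with the replicate block and 161 without MEF replicate 3. For F/R/C against MEF, DESeq2 again gave Atp2a1 no adjusted p, and leaving out each library gave 8 to 15 called transcripts in place of 13. For F/R/C against MyoD, with 3 of the 10 genes called, DESeq2 called 7 (39.65% of all genes), a fit of only these 2 groups 7 (33.13%), and leaving out each library 1 to 7. Of the transcripts, 6 were called there, 3 with no filter beyond 5 counts, and 0 to 12 with each library left out.

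With the replicate number as a block, F/R/C against MyoD gave 9 of the 10 genes in place of 3, all but Atp2a3, where it called 40.31% of all genes. Same-numbered libraries of these groups correlated at r = 0.0837, 0.119 and 0.164, each library best with its own number, which is a hint from the data and not from the design. For MyoD against MEF the block called 3 other calcium genes in place of 0. For F/R/C against MEF it added Pln, with 43.75% of all genes called, and it changed no other call of the 10 genes. Pln passed the filter only through its F/R/C libraries, so its calls with the block add no support in either comparison.

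The difference of Atp2a3 between F/R/C and MyoD turned from -0.53 to 0.59 with the block and ranged from -1.10 to 0.96 with each library left out. For MyoD against MEF, Atp2a2 ranged from -0.24 to 0.54, Pln from -2.60 to 3.15, and the relative use of Atp2a2-203 from -0.23 to 0.15, each turning without MyoD replicate 3. The difference in the Casq1 to Casq2 ratio between F/R/C and MEF was -0.0102 with 1 TPM added and -0.42 on the CPM scale, and -0.17 to 0.35 with each library left out. That in the Sln to Pln ratio between F/R/C and MyoD was 1.11 with 1 TPM added and 0.33 on the CPM scale, and -0.97 to 0.49 with each library left out.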
